A study of Mus musculus with 4 samples.

Results

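Peaks of the homeodomain factor Pitx1 over the locus of the T-box genes Tbx3 and Tbx5 were examined in mouse hindlimb buds. The locus was taken as 1.5 Mb of chromosome 5 (chr5:119200000-120700000, build mm9), from the end of Med13l over Tbx3 and Tbx5 to Rbm19. A peak belonged to it when its midpoint lay in that window. By this rule the locus held 19 of the 14753 peaks of replicate 1 and 39 of the 25027 peaks of replicate 2. Of 10274 replicated peaks in the whole genome, 17 were in the locus. Peaks of the 2 libraries that overlap by at least 1 bp were joined and counted as 1 replicated peak. Choice by position uses no peak strength, so strength and recurrence could be compared with the rest of the autosomes. The window and comparisons were, however, chosen with earlier results of these data known, which limits what they show.

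The material was wild-type ICR hindlimb bud at E11.5, and all 4 libraries share this strain, genotype, tissue and age. The 2 ChIP libraries were made with an antibody against Pitx1 from Santa Cruz, and 2 libraries hold input chromatin with no antibody. Input libraries had no peak list of their own. The labels state that material from 3 ChIPs went into libraries and name no separate litters for the replicates. Technical and biological differences between the replicates thus cannot be told apart. Whole buds were used, so the cells of the bud that carry a given peak cannot be told apart, and the peak lists offer no marker by which the tissue could be checked. Read depth was unknown, which limits any statement on peaks found in 1 library only.

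Pitx1 is a bicoid-type homeodomain protein of the hindlimb that is not made in the forelimb bud. Tbx5 is the T-box factor of the early forelimb bud and is needed there for the limb to grow out, while its relative Tbx4 serves the hindlimb. Tbx3, a T-box repressor, is made in both pairs of limb buds along their anterior and posterior margins, and its loss in people gives ulnar-mammary syndrome. Tbx3 and Tbx5 lie side by side, as do their relatives Tbx2 and Tbx4, and genes of this kind are often controlled from elements far away in sequence that holds few protein-coding genes. The locus is thus one where a hindlimb factor could be mapped around a gene of the forelimb and a gene of both limbs.

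In the RefSeq gene table of the build GRCm38, the protein-coding genes of this stretch come in the order Med13l, Tbx3, Tbx5 and Rbm19, with no other between them. Med13l encodes a subunit of the Mediator kinase module and Rbm19 an RNA-binding protein of ribosome production. Between the starts of Med13l and Rbm19 the table also has 21 long noncoding RNA genes, of which 14 start before Tbx3, 2 between Tbx3 and Tbx5 and 5 after Tbx5. Gene positions of that build were not carried over to mm9. Tbx3 was placed at about 120.12 Mb and Tbx5 at about 120.28 Mb of mm9, each to the nearest 10 kb. Whether a peak covers a start site, an exon or an intron was therefore not determined. "Before" and "after" a gene refer to coordinates lower and higher than its approximate position, so such a peak may lie within the gene.

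Pitx1 peaks were dense over the locus. Replicated peaks reached 11.3 per Mb (95% exact Poisson interval 6.60 to 18.1), against 4.11 per Mb over the rest of the autosomes, which held 10128. The ratio was 2.76 (exact interval 1.61 to 4.42). Replicate 1 alone gave 12.7 peaks per Mb against 5.90, a ratio of 2.15 (1.29 to 3.36). In replicate 2 alone there were 26 peaks per Mb against 10.01, a ratio of 2.60 (1.85 to 3.55). None of these intervals included 1. They allow for counting error alone, and clustering of peaks would make them wider.

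Dense windows of this kind were nevertheless not rare. The autosomes were laid out in 1634 windows of 1.5 Mb that did not touch the locus. A median window held 5 replicated peaks, with quartiles of 2 and 9, and the fullest held 41. As many as 17 or more were found in 95 windows, or 5.81%. For the 19 peaks of replicate 1 the share was 10.2% (167 windows), and for the 39 peaks of replicate 2 it was 3.86% (63 windows). The windows include stretches at chromosome starts on which reads cannot be placed, and 190 held no replicated peak.

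**Figure D1:**
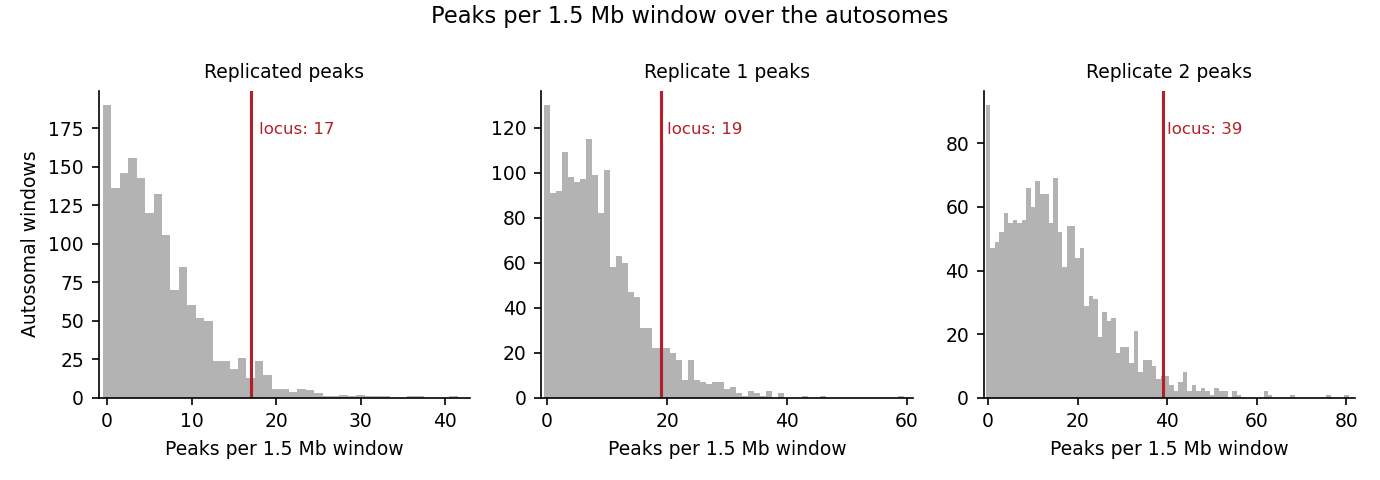
Number of autosomal windows of 1.5 Mb (vertical axis) by the number of peaks they hold (horizontal axis), for replicated peaks and for the peaks of each library; the red line marks the Tbx3 and Tbx5 locus. The locus lies in the upper tail in each panel, with 17, 19 and 39 peaks against a fullest window of 41, 59 and 80.

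Most peaks lay in the long stretch before Tbx3, on the side of Med13l. That stretch of 920 kb held 13 of the 17 replicated peaks, or 14.1 per Mb (interval 7.52 to 24.2), which was 3.44 times the rest of the autosomes (1.83 to 5.89). The 160 kb from Tbx3 to Tbx5 held 1 replicated peak, which lay at the position of Tbx3 itself. The 420 kb from Tbx5 to the end of the window held 3. From Tbx3 onward the density was 6.90 per Mb, 1.68 times the rest of the autosomes with an interval of 0.457 to 4.30 that includes 1. Replicated peaks were 2.05 times denser before Tbx3 than from Tbx3 on, but the interval of this ratio, 0.633 to 8.63, also includes 1. With the peak at Tbx3 counted on the other side, since that position is known to 10 kb only, the ratio was 2.94 (0.821 to 16.0).

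The libraries differed in how far they showed this contrast. Replicate 2 had 33 peaks before Tbx3 and 6 from Tbx3 on, a ratio of 3.47 with an interval of 1.43 to 10.1. Replicate 1 had 14 and 5, a ratio of 1.77 (0.601 to 6.26). Both intervals allow for counting error alone, and clustering of peaks would make them wider. The comparison of the sides of Tbx3, here and above, was added after the data were seen. The stronger contrast in replicate 2 came with its unshared peaks, 20 of 22 of which lay before Tbx3. Whether the ratio differs between the libraries was not tested.

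**Figure D2:**
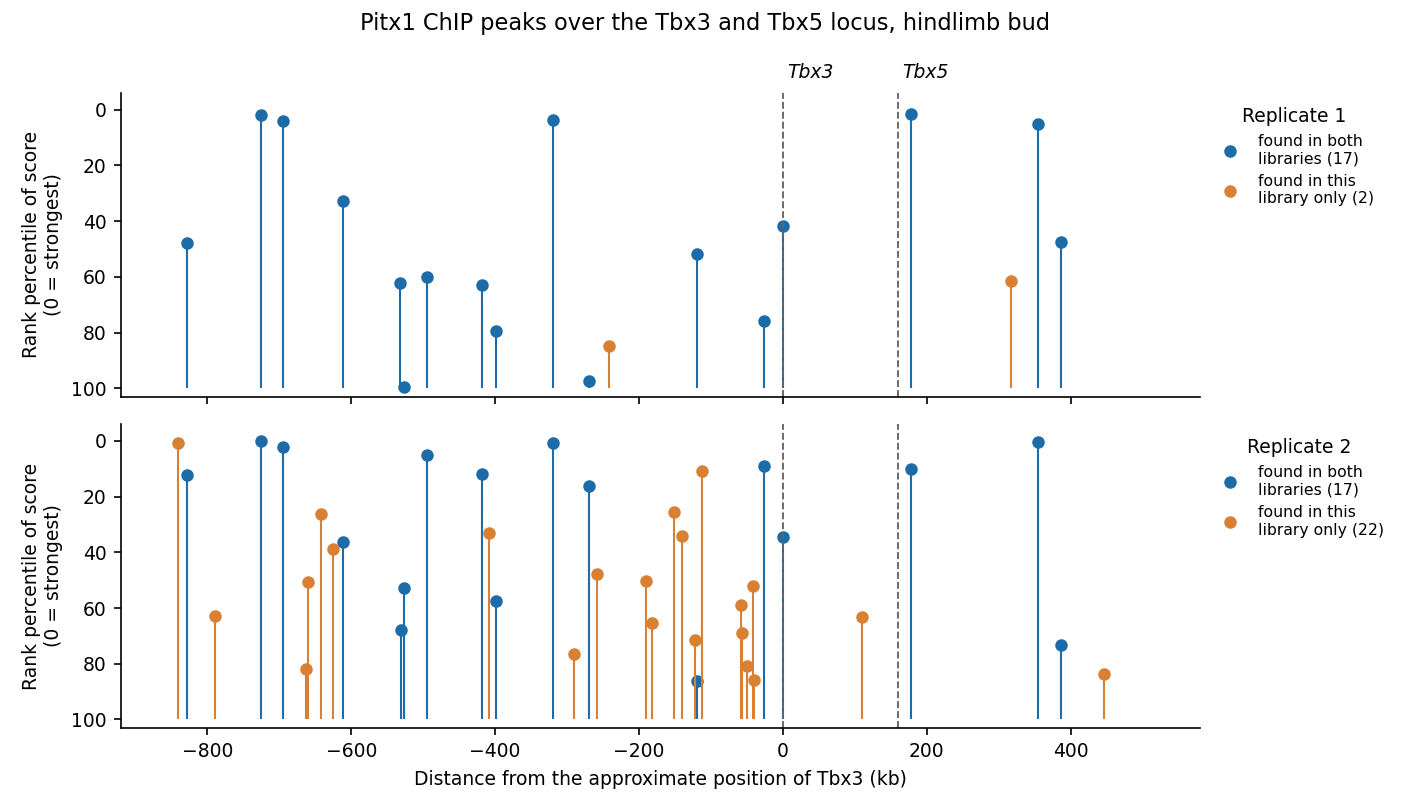
Pitx1 ChIP peaks of each library by their distance in kb from the approximate position of Tbx3 (horizontal axis) and by the rank percentile of their score within the library's autosomal peaks (vertical axis, 0 is the strongest); dashed lines mark Tbx3 and Tbx5. Blue peaks overlap a peak of the other library (17 in each) and orange ones do not (2 in replicate 1 and 22 in replicate 2).

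**Figure D3:**
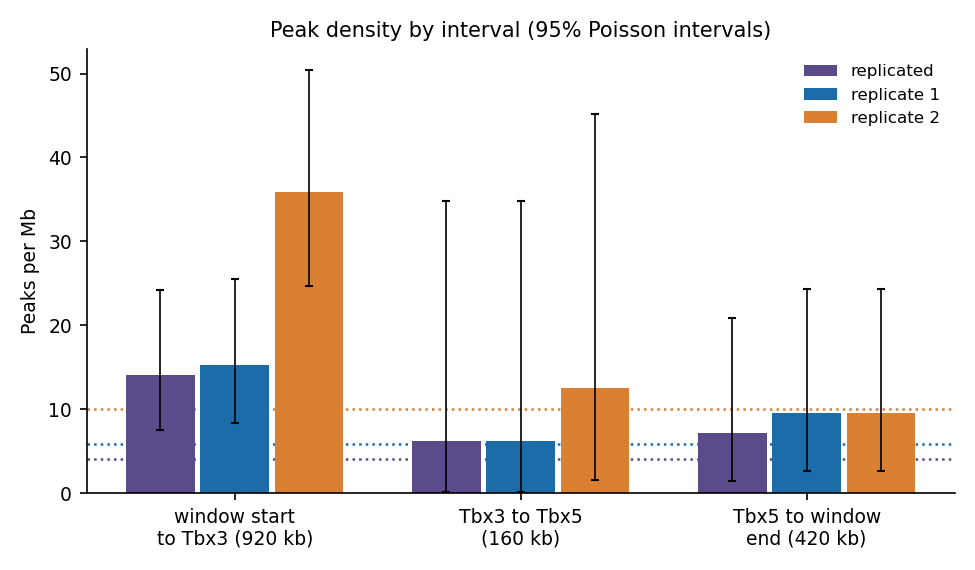
Peaks per Mb in the 3 intervals of the locus for replicated peaks and for each library, with 95% exact Poisson intervals as error bars; dotted lines give the density over the rest of the autosomes in the same colour. Before Tbx3 all 3 bars stand above their dotted lines with intervals that do not reach them, and in the other intervals the error bars span the lines.

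Peak strength is given by the caller's score, used as a rank percentile among the autosomal peaks of the same list, where 0 is the strongest. In 5 of the 17 replicated peaks the score was in the best 10% of both lists. Over the rest of the autosomes 10.5% of replicated peaks met this mark. These 5 were spread over the locus, with 3 before Tbx3 and 2 after Tbx5. Of the 1634 windows, 19 (1.16%) held 5 or more such peaks, and the median window held 0. The windows were not matched for peak number, with a median of 5 replicated peaks against 17 in the locus, so this share mixes density with strength. This comparison was chosen after the peaks of the locus had been seen. Since 1 of the 5 was barely within the best 10% of replicate 2, the count of windows with 4 or more is also given, and it was 40 (2.45%).

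The strongest replicated peak of the locus was at chr5:119393953-119395139, 725 kb before Tbx3. It scored 466 in replicate 1 (rank 258 of the autosomal peaks, percentile 1.77) and 1626 in replicate 2 (rank 30, percentile 0.121). By the sum of ranks, in which the longer list of replicate 2 weighs more, it was at place 105 among the autosomal replicated peaks. The next, at chr5:119800270-119801189, lay 319 kb before Tbx3, with scores of 359 and 944 (percentiles 3.59 and 0.761). Both thus stood in the long stretch before Tbx3, far from either T-box gene. At chr5:119424867-119425928, 29.7 kb after the strongest, another peak scored 340 and 607 (percentiles 4.14 and 2.35).

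After Tbx5, chr5:120473918-120474923 scored 315 in replicate 1 and 1221 in replicate 2 (percentiles 5.00 and 0.356), at place 300 by the sum of ranks. It lay 194 kb after the position of Tbx5. The peak nearest to Tbx5 was the last of the 5, at chr5:120297469-120298795. It had the highest replicate 1 score of the locus, 472 (rank 245, percentile 1.68), and a lower standing in replicate 2, with a score of 281 (rank 2463, percentile 9.96). The other 4 ranked better in replicate 2, as did 12 of the 17 replicated peaks of the locus and 65.6% of those on the rest of the autosomes.

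At the genes themselves, Tbx3 had a peak of middling strength in both libraries. The replicated peak at chr5:120120312-120121261 scored 92.2 in replicate 1 (percentile 41.6) and 118 in replicate 2 (percentile 34.4), and its edge was 0.312 kb from the approximate position of Tbx3. The midpoints of both libraries differed by 7.5 bp there. It was the only peak within 10 kb of that position in either library. No peak of either library lay within 10 kb of the position of Tbx5. The nearest was the strong peak at 120297469, with an edge 17.5 kb after that position in replicate 1 and 17.7 kb after it in replicate 2. Both positions are approximate, so these distances place no peak on a promoter or in an intron.

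Among the other replicated peaks, 5 ranked much better in replicate 2 than in replicate 1 and stood at percentile 16.1 or better there. At chr5:119625159-119625962 the scores were 71.8 and 413 (percentiles 60.2 and 5.18), and at chr5:119701283-119702115 they were 69.7 and 249 (63.0 and 11.9). The peak at chr5:119290964-119292224 scored 83.7 and 246 (47.9 and 12.2). Closer to Tbx3, 25.9 kb before its position, chr5:120093691-120094564 scored 61.4 and 297 (75.7 and 9.15). The widest gap was at chr5:119850483-119851067, with 51.2 and 205 (97.3 and 16.1). In replicate 1 this last score lay just above the lowest in the list, 50. Ranks that differed by more than 30 percentiles were seen in 7 of the 17 replicated peaks, against 28.2% over the rest of the autosomes.

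The rest were beyond percentile 30 in both libraries. The peak at chr5:119508149-119508989 scored 107 and 113 (percentiles 32.9 and 36.3), and chr5:120506075-120506775, the last of the locus, scored 84.3 and 64.5 (47.3 and 73.4). Scores were 70.3 and 68.6 at chr5:119587931-119588600 and 59.3 and 78.5 at chr5:119720893-119721697. The remaining pair, at chr5:119593428-119593954 and chr5:120000883-120001530, came last by the sum of ranks, with scores of 50.3 and 83.5 and of 79.8 and 56.2. The former also ranked much better in replicate 2 (percentiles 99.4 and 52.9), and the latter ranked better in replicate 1 (51.7 and 86.1). At the edges of the window, the first replicated peak inside lay 91.0 kb from the border and the last inside 193 kb from it. The nearest outside were 53.8 kb before (scores 86.5 and 122) and 317 kb after it (178 and 79.8).

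**Figure D4:**
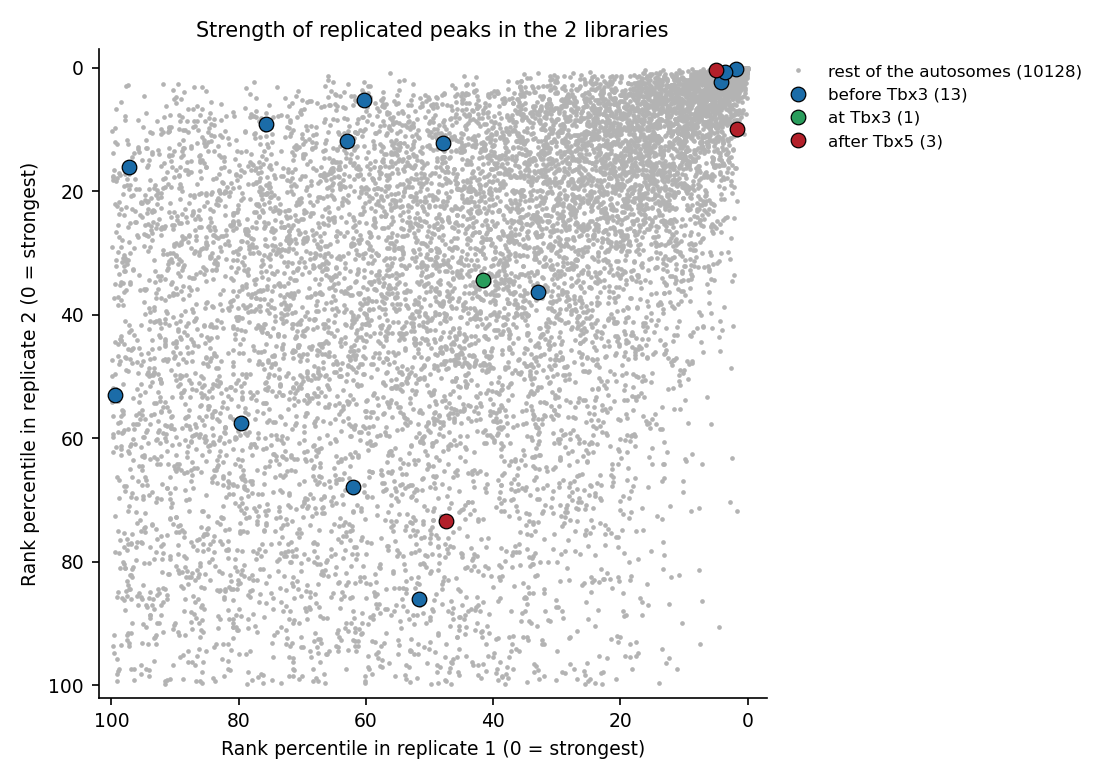
Rank percentile of each replicated peak in replicate 1 (horizontal axis) and in replicate 2 (vertical axis), where 0 is the strongest; grey points are the 10128 replicated peaks of the rest of the autosomes and coloured points are the 17 of the locus. In the corner of strong peaks are 5 of the locus, 3 before Tbx3 and 2 after Tbx5, and several peaks before Tbx3 lie along the top left, with a better rank in replicate 2.

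Across the 17 replicated peaks, ranks in the libraries had a Spearman's rho of 0.512, and 0.559 across those of the rest of the autosomes. These values describe peaks of the same 2 libraries, and such peaks are not independent replicates. The median replicated peak of the locus stood at percentile 47.9 in replicate 1 and 12.2 in replicate 2, against 38.1 and 25.3 over the rest of the autosomes. The quartiles in the locus, 5.00 and 63.0 in replicate 1 and 5.18 and 52.9 in replicate 2, took in the medians of the rest of the autosomes.

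Over all peaks of the locus, shared or not, strength was near that of the genome in the middle and heavier at the top. The median percentile was 51.7 in replicate 1 (n = 19) and 47.6 in replicate 2 (n = 39), where an even spread gives close to 50. The best 10% held 5 peaks of replicate 1 (26.3%) and 8 of replicate 2 (20.5%). In replicate 1 no peak of the locus fell between percentiles 10 and 30, so its 5 strong peaks stood apart from 14 of moderate or low score. In replicate 2 the weakest 10% held 0.

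**Figure D5:**
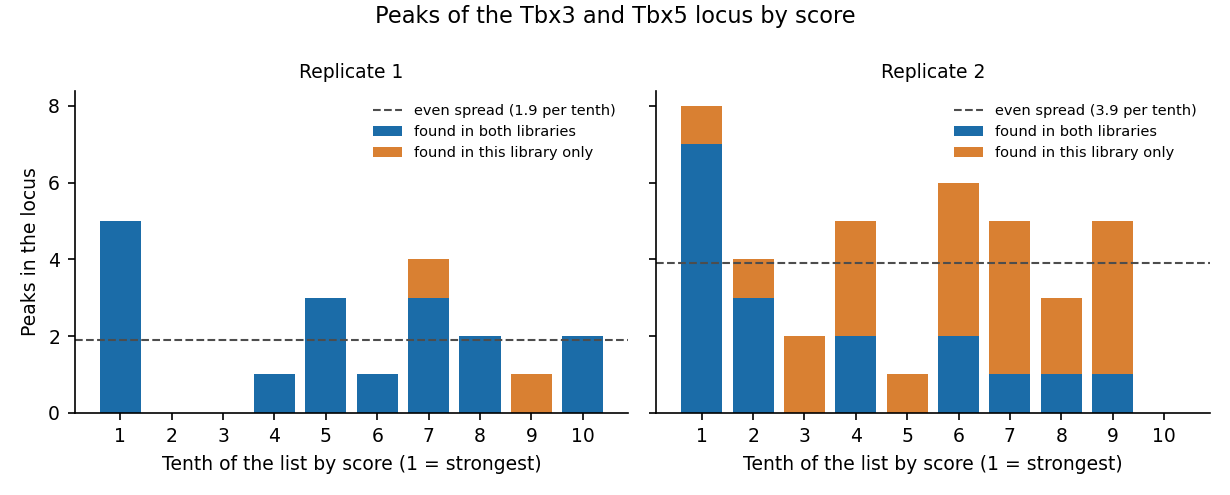
Number of peaks of the locus (vertical axis) in each step of 10% of the library's autosomal peaks by score (horizontal axis, 1 is the strongest), divided into peaks found in both libraries and in 1 only; the dashed line is an even spread. The first step holds 5 peaks in replicate 1 and 8 in replicate 2, and nearly all of these were found in both libraries. Over the rest of the autosomes 99.3% of first-step peaks in replicate 1 and 95.1% in replicate 2 were also found in both.

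Nearly all replicate 1 peaks of the locus recurred. Of 19 peaks, 17 overlapped a replicate 2 peak (89.5%, 95% Wilson interval 68.6 to 97.1%), where 69.8% did so over the rest of the autosomes. The interval includes the latter share. Among peaks beyond percentile 50 of the list, 8 of 10 locus peaks recurred (80.0%, interval 49.0 to 94.3%) and 52.7% elsewhere, a contrast also within the interval. In replicate 2, 17 of 39 peaks were shared (43.6%, interval 29.3 to 59.0%), close to the 42.6% of the rest of the autosomes. Beyond percentile 50 of that list, 5 of 19 locus peaks recurred (26.3%, interval 11.8 to 48.8%) and 21.5% elsewhere. Shares elsewhere, weighted to the locus peaks' own steps of 10% by score, were 69.4% in replicate 1 and 49.0% in replicate 2. Both lay within the intervals for all locus peaks of the same library. Each replicated peak of the locus joined 1 peak of each library.

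The 2 peaks found in replicate 1 only were weak. The stronger was at chr5:120437369-120438028, between Tbx5 and Rbm19, with a score of 70.7 (percentile 61.6), and no replicate 2 peak was nearer than 36.0 kb. The other, at chr5:119877465-119878263, scored 56.6 (percentile 84.9) and was 16.1 kb from one.

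Among the 22 peaks found in replicate 2 only, 1 was strong. At chr5:119279083-119279915 it scored 925 (rank 199, percentile 0.805), the highest of the 14190 unshared autosomal peaks of that list. It lay 11.05 kb before the nearest replicate 1 peak, which is the first replicated peak of the locus. Next among the unshared was chr5:120006673-120007223, with a score of 265 (percentile 10.9). It was 5.14 kb from a replicate 1 peak. Of the 22, 8 (36.4%) were better than percentile 50 of their list, against 31.6% of unshared peaks elsewhere. Their median score was 81.0, against 246 for the 17 shared peaks of replicate 2. Over the rest of the autosomes these medians were 71.6 and 145. The unshared peaks lay a median of 26.8 kb from any replicate 1 peak, and 0 lay within 1 kb of one. The closest was 3.41 kb away. These distances were not measured for unshared peaks elsewhere, where replicate 1 peaks are less dense (5.90 per Mb against 12.7 in the locus).

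Replicate 2 had its densest 100 kb just before Tbx3, where 2 overlapping stretches held 9 peaks each. They were picked as the fullest of the locus, and how often 100 kb elsewhere held as many was not counted. In the first, between chr5:119979960 and chr5:120079744, replicate 1 had 1 peak, and it was replicated. In the second, between chr5:119997110 and chr5:120094564, it had 2, both replicated. The other replicate 2 peaks of these stretches were found in that library only. Most replicate 2 peaks there were of moderate or low score, from 84.7 down to 56.2 (percentiles 51.9 and 86.1). The exceptions were at chr5:119979960 (score 119, percentile 34.0), chr5:120006673 (265 and 10.9) and chr5:120093785 (297 and 9.15). Replicated peaks of the locus reached at most 3 in 100 kb, as from chr5:119508149 to chr5:119593954.

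Of the 17 replicated peaks of the locus, 2 had a replicated neighbour under 10 kb away, against 24.3% over the rest of the autosomes. This was the pair at 119587931 and 119593428, 4.83 kb apart. The 16 gaps between members had a median of 76.9 kb, and the median was 87.9 kb over the rest of the autosomes. A window with 17 peaks has few long gaps by construction. The lengths of gaps inside it, set against those elsewhere, thus follow in part from its density. The longest gap, 176 kb, ran from the peak at Tbx3 to the one after Tbx5, and 33.4% of gaps elsewhere were longer. Within it replicate 2 had a single weak peak at chr5:120229730-120230076 (score 72.7) and replicate 1 none. After the last member no replicated peak followed for 510 kb, a length that 12.1% of all autosomal gaps reached.

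Peak widths in the locus were like those elsewhere. Replicated peaks had a median length of 841 bp (527 to 1327 bp), against 863 bp over the rest of the autosomes. Midpoints in the libraries differed by a median of 57.5 bp, and elsewhere by 59.5 bp. Replicate 1 peaks were the wider in 14 of 17, and in 91.8% elsewhere. The longest replicated peak of the locus was the one nearest to Tbx5.

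The additional list of 1 bp positions deposited by the authors had 17 entries in the locus. Each lay in a different replicated peak, and inside the peaks of both libraries. This was also so elsewhere, since 99.0% of shared replicate 1 peaks and 99.7% of shared replicate 2 peaks on the rest of the autosomes held a position. Their distance to the replicate 2 midpoint had a median of 38 bp and a maximum of 182 bp. The peak at Tbx3 and the one nearest to Tbx5 both had a position. The strong replicate 2 peak at 119279083, found in that library only, had none.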

How the data were processed

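Pitx1 ChIP peaks of 2 libraries were analysed. The authors deposited 1 list per library, with peak positions and a score per peak, and 1 list of positions with no score. Per the submitters' processing notes MACS 1.4.2, Bowtie 0.12.8, bedtools 2.16.2 and CASAVA (1.7, 1.8.2) were used with build mm9. For the roles of these tools, their settings and any use of the input, nothing is given in the sources used here. Peaks are numbered from the first in each list, so each library was called separately. The deposited score is the caller's own and was used only for ranks within a list. Read depth is unknown.

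Peaks were counted by midpoint and positions are given from 1. Densities used autosome lengths up to the last peak. Ratios have exact conditional 95% intervals. Windows of 1.5 Mb were laid end to end. All intervals cover counting error only, and neighbouring peaks are not independent. With 1 condition and 2 libraries no test between groups was possible. Peaks were described singly if among the 15 replicated peaks best by summed rank, the strongest unshared of each list, or nearest to a gene; the other replicated pair and other unshared peaks were named after their values were seen. The window and comparisons were chosen with earlier results of these data known. The search for overlaps and the count of peaks in the window were checked on simulated lists, and the other calculations were not. Software was scipy 1.17.1, matplotlib 3.10.9, pandas 2.3.3 and numpy 2.4.6 under Python 3.11.15. The mm9 sequence was not used here.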

Additional observations from a re-analysis of the deposited data

How the results depend on the processing

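No paired analysis was possible because no peak list of the input was used here, so only 1 group had values. The density ratio of the locus stayed above 1 under the 11 alternatives run, from 2.15 to 3.07. The lowest value was for all peaks of replicate 1 against the rest of the autosomes. The highest was for replicated peaks against the rest of chromosome 5 only. In the best 25% of each list, 5 replicated peaks of the locus gave 2.94, and the interval of 0.955 to 6.88 included 1. In the best 50% the interval of the ratio reached down to 1.05. The share of windows as full as the locus moved more. It was 10.8% in the best 50% of each list and 9.85% in the best 25%, and with each replicate left out in turn it ranged from 3.86 to 10.2%. Before Tbx3 the best 50% held 5 replicated peaks, and single libraries held 14 to 33. From Tbx3 to Tbx5 single libraries held 1 to 2. The cause was not tested, though a shorter list holds fewer peaks by construction. Recurrence ranged from 73.7 to 90% in replicate 1 and from 35.9 to 53.8% in replicate 2. With midpoints within 250 bp, 16 of the 17 replicated peaks remained; with reciprocal overlap of 50%, 14 did. Comparison of densities on either side of Tbx3 was added after the data were seen. Unknown depth limits any statement on peaks of 1 library.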

Other observations

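The RefSeq promoter table (GRCm38) was searched for 4 genes, Tbx2, Tbx3, Tbx4 and Tbx5, and 1 of them, Tbx4, was matched. Its promoter entry held neither TAATCC nor TAATCT, motifs of 6 letters of the bicoid type, searched on both strands and without overlap between them. Over all 32851 promoter entries of 300 bases, 7.06% held the former and 8.19% the latter. This says only that these letters are not in that window.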
